A study of Mus musculus with 5 samples.

Results

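The 2 mature arms of the mouse microRNA miR-21a, mmu-miR-21a-5p and mmu-miR-21a-3p, were followed through liver development in tables that pair each Argonaute-bound RNA cluster with the miRNA seed matches it holds. An entry belonged to an arm where the miRNA named in the entry was that arm, which gave 2196 entries for miR-21a-5p and 4939 for miR-21a-3p, 7135 of 3254259 entries in all. After entries of the same position were joined, these were 1504 distinct sites of miR-21a-5p and 3202 of miR-21a-3p. Argonaute HITS-CLIP freezes Argonaute on its RNA with ultraviolet light (here 254 nm, 0.2 J/cm2, 3 exposures), pulls the complex down with an antibody and sequences the bound miRNAs and target fragments. The 5 libraries were livers of C57BL/6 mice at embryonic days e12.5, e15.5 and e18.5, at postnatal day 7 (P7) and in adults of 6 to 8 weeks. Ago2 antibodies were used throughout, and an Ago1 antibody was added for P7 and adult. The methods name 2 biological replicates for the Ago2 experiments, but the labels hold 1 library per stage, so no spread between animals can be given, each interval below covers counting error alone, and a difference between libraries is not a tested difference between stages. The added antibody and the time after birth cannot be told apart.

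A miRNA is cut from a hairpin precursor that has 2 arms, and the arm loaded into Argonaute guides it to messenger RNAs that match bases 2 to 8 of the miRNA, the seed. miR-21 is a broadly expressed miRNA, best known as an oncogenic and fibrosis-linked miRNA whose 5p arm is the usual guide. Its reported targets include inhibitors of growth factor signalling, apoptosis genes and matrix regulators, and in liver it has been studied in regeneration, fibrosis and lipid metabolism.

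The seeds are shown first because they decide which messenger RNA bases can be listed for each arm. Bases 2 to 8 are in capitals, and the sequences are those of RefSeq (GRCm38.p6).
mmu-miR-21a-5p: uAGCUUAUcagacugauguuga
mmu-miR-21a-3p: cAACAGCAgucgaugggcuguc
The arms lie at chr11:86584120-86584141 and chr11:86584082-86584103, both on the minus strand, in a hairpin that RefSeq places within the last exon of Vmp1. Their seeds share no site: no position listed for miR-21a-3p was also listed for another miRNA, whereas between 70.2% and 98.6% of miR-21a-5p sites in a library were also listed for miR-21c, the only other miRNA with the same seed. miR-21c had 7 to 74 reads in a library, at most 0.0726% of the miR-21a-5p reads. All 1504 and 3202 sites were found in the GRCm38 genome with the match that their seed type requires. The 5p match in messenger RNA is TAAGCT for a 6mer, ATAAGCT for a 7mer-m8 and ATAAGCTA for an 8mer, and the 3p matches are GCTGTT and TGCTGTT for a 6mer and a 7mer-m8.

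The next sequences show what the listed sites look like, with the matched bases in capitals and 22 bases of the target strand each. Itgb1 and Ctsb had a miR-21a-5p site in all 5 libraries, the following 3 are 8mers in target genes reported for miR-21, and the last pair are the sites of miR-21a-3p with most scaled reads among those listed in all 5 libraries, in 3'UTRs and in coding sequences (CDS).
Itgb1 (3'UTR, 6mer, chr8:128732996-128733001, plus strand): ttttcacaaatactgTAAGCTg
Ctsb (CDS, 8mer, chr14:63133992-63133998, plus strand): tctacaatgttgacATAAGCTA
Spry2 (3'UTR, 8mer, chr14:105892499-105892505, minus strand): gagacccacattgcATAAGCTA
Peli1 (3'UTR, 8mer, chr11:21148555-21148561, plus strand): tgcattgtaagtttATAAGCTA
Tgfbi (3'UTR, 8mer, chr13:56639184-56639190, plus strand): gaaacggcatcactATAAGCTA
Ccnf (3'UTR, 7mer-m8, chr17:24223840-24223846, minus strand): tactgagggagggcTGCTGTTt
Chp1 (CDS, 7mer-A1, chr2:119580746-119580752, plus strand): gatctcccgtgatgaGCTGTTA
Coordinates are mm10 and 1-based, and the interval of an 8mer leaves out the final A, which faces base 1 of the miRNA.

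miR-21a-5p was among the abundant Argonaute-bound miRNAs of every library, and its share was higher in the libraries from after birth. The number in each entry's name is the read count of the miRNA: reads at the Mir21a locus itself came to between 98.1% and 100% of it. In order of age, from the e12.5 library to the adult one, miR-21a-5p had 130129, 99426, 56478, 232163 and 432236 reads. As a share of all miRNA reads this was 0.509% (95% Wilson interval 0.507 to 0.512), 0.984%, 0.726%, 1.93% (1.92 to 1.93) and 1.89% (1.88 to 1.89). The 3 fetal libraries thus lay below both later ones, by 3.70-fold from e12.5 to adult (log2 1.89) and by 2.65-fold from e18.5 to P7 (log2 1.41), and P7 and adult were within 0.03 on the log2 scale. Scaled to the study's total reads of each library in place of its miRNA reads, the log2 difference from e12.5 to adult was 2.89. Its rank among the miRNAs of a library was 20, 16, 21, 13 and 12 in the same order, out of 585 to 745 miRNAs. Markers of other liver cells also differed between these libraries. From e12.5 to adult, and per 1000000 reads outside miRNA genes, the endothelial markers (Pecam1, Stab2 and Cdh5) summed to 10.98, 27.1, 40.3, 382 and 326. The stellate and mesenchymal markers (Col1a1, Col3a1 and Dcn) summed to 68.6, 57.3, 139.9, 508 and 250.1. The macrophage markers (Cd68, Adgre1 and Cd5l) summed to 1.92, 20.9, 33.7, 56.6 and 86.5, with no cluster for Adgre1 in any library and none for Cd68 in e12.5 and e15.5. The sum of the 5 hepatocyte markers went from 1572 in e12.5 to 45733 in adult, whereas that of the erythroid markers Hbb-bt, Slc4a1 and Hba-a1 went from 70878 to 4008. The erythroid sum was thus lower in P7 and adult than in the fetal libraries and the other 4 sums were higher there, and their part in the share of miR-21a-5p was not tested.

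miR-21a-3p, the arm that is usually degraded, was rare and followed another course. From e12.5 to adult it had 498, 467, 360, 216 and 1918 reads. Its share of miRNA reads was 0.00195% (0.00179 to 0.00213), 0.00462%, 0.00463%, 0.00179% (0.00157 to 0.00205) and 0.00837% (0.00800 to 0.00875). By whole libraries adult was thus the highest, although the first list of the e15.5 table (0.00847%) lay above it, the intervals of e15.5 and e18.5 overlapped, and so did those of e12.5 and P7. From e18.5 to P7 the share of miR-21a-3p was lower by 1.37 on the log2 scale while that of miR-21a-5p was higher by 1.41. From the second list of e18.5 alone, which had 48 reads of miR-21a-3p, the log2 difference to P7 was -0.43 for 3p and 1.33 for 5p, against -1.59 and 1.44 from the first list. The ratio of 5p to 3p reads was 1075 at P7 and 157 to 261 in the other libraries, so by whole libraries P7 had the fewest 3p reads for its 5p reads. Within the fetal tables, described next, a single list reached 6203.

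The fetal tables each hold 2 lists of entries joined end to end, and the 2 lists differed more for the 3p arm than for the 5p arm. For miR-21a-5p the shares in the first and the second list were 0.571% and 0.493% for e12.5, then 0.828% and 1.04% for e15.5, then 0.712% and 0.767% for e18.5. For miR-21a-3p they were 9.20e-05% (5 reads) and 0.00245% (493 reads) for e12.5, then 0.00847% and 0.00336% for e15.5, then 0.00539% and 0.00241% for e18.5. For miR-21a-3p the lists of e12.5 were further apart than any pair of libraries, whereas for miR-21a-5p every fetal list lay below P7 and adult. The study's supplement names a further replicate for e18.5, and how the 2 lists of each fetal table relate to replicates is not given in the sources used here.

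**Figure D1:**
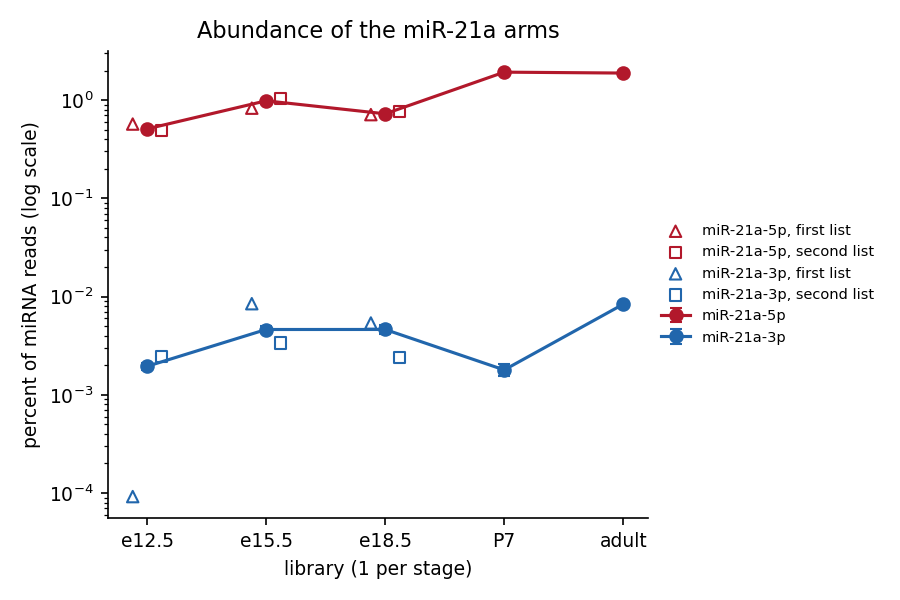
Share of all miRNA reads (percent, log axis) taken by miR-21a-5p (red) and miR-21a-3p (blue) in the 5 libraries. Filled points are whole libraries with 95% Wilson intervals, triangles and squares are the first and the second list of a fetal table. miR-21a-5p runs from 0.509% to 1.93%, miR-21a-3p from 0.00179% to 0.00837%, and the fetal lists scatter widely for the 3p arm alone.

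The miRNAs whose profile over the 5 libraries lay nearest to each arm were not the same. For miR-21a-5p these were miR-28a-5p (mean absolute difference 0.14 in centred log2 reads per 1000000 miRNA reads, over 5 libraries and 254 miRNAs compared), miR-148a-3p (0.24), miR-28a-3p (0.26), miR-107-3p (0.27) and miR-190a-5p (0.28). miR-28a-5p went from 0.00316% of miRNA reads in the e12.5 library to 0.0113% in the adult one. For miR-21a-3p they were miR-27a-3p (0.14, of 255), miR-22-3p (0.36), miR-23b-3p (0.45), miR-16-5p (0.45) and miR-23a-3p (0.47), and miR-27a-3p had 0.200%, 0.376%, 0.450%, 0.210% and 0.734% of miRNA reads from e12.5 to adult, with low values in e12.5 and P7 as for miR-21a-3p. At its highest, 83.7 per 1000000 miRNA reads in adult, miR-21a-3p was itself below the floor of 100 set for the compared miRNAs. Its e12.5 lists held 5 and 493 reads, so its profile is uncertain.

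The rarer arm had the more sites. From e12.5 to adult, miR-21a-5p was listed at 624, 353, 265, 468 and 333 distinct sites, and miR-21a-3p at 1602, 792, 566, 919 and 661. The median miRNA had 1190, 464, 380.5, 731 and 569 sites, so the 5p arm, with ranks of 12 to 21 by reads, stood below the median in every library (ranks 364 to 574 by sites), and the 3p arm above it (ranks 152 to 292). The number of listed sites thus did not follow the reads of the arms, and ATAAGCT is the less frequent word. Among 10571 genes with a listed 3'UTR site of any miRNA and an annotated 3'UTR (GENCODE vM21), 9.32% hold ATAAGCT and 25.4% hold TGCTGTT on the transcript strand. Of the 985 genes with ATAAGCT, 101 (10.3%, 95% interval 8.51 to 12.3) had a listed 7mer-m8 or 8mer of miR-21a-5p, and of the 2680 with TGCTGTT, 386 (14.4%, 13.1 to 15.8) had one of miR-21a-3p. The share was thus lower for the abundant arm, over gene sets that were not matched for 3'UTR length, copies of the word or listed sites.

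Nearly all clusters with a miR-21a site held sites of other miRNAs too. Of the 3'UTR clusters with a miR-21a-5p site, 3.85% to 11.9% in a library held none of another miRNA (miR-21c aside), and the median number of other miRNAs was 3 to 5. The reads at a site therefore belong to the fragment and cannot be given to one miRNA.

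The arms differed in where and how they matched. Over the 5 libraries, 460 of the miR-21a-5p sites were listed in a 3'UTR, 438 in a CDS and 25 in a 5'UTR, and miR-21a-3p had 753, 1176 and 66. From e12.5 to adult, the 3'UTR share of miR-21a-5p sites was 30.6%, 35.1%, 38.1%, 33.3% and 30.03%, against 20.01% to 25.8% over the sites of all miRNAs. The share in the CDS was 25.6%, 25.5%, 27.9%, 35.5% and 44.4%, and over all miRNAs it also went from 34.6% to 52.8%. The higher CDS share in the later libraries was thus shared by the whole tables.

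By seed type, miR-21a-5p was mostly a 6mer miRNA and miR-21a-3p mostly a 7mer-m8 miRNA. Of the 5p sites 61.8% were 6mers, 10.04% 7mer-A1, 21.7% 7mer-m8 and 6.52% 8mers, and of the 3p sites 37.7%, 4.09%, 50.7% and 7.56%, beside 52.9%, 16.6%, 22.7% and 7.81% over all miRNAs. Of the 3p sites with TGCTGTT, 40.8% had a C before it (CTGCTGTT). The deposited pairing energy (mfe, more negative for stronger pairing) had a median of -7.2 over 5p sites in 3'UTRs, -12.2 over 3p sites and -10.3 over all miRNAs.

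Few sites came back from library to library. Of the miR-21a-5p sites, 1154 (76.7%) were listed in 1 library, 223 in 2, 82 in 3, 28 in 4 and 17 (1.13%) in all 5, and of the miR-21a-3p sites 2379 (74.3%) were listed in 1 and 48 in all 5, beside 80.8% and 0.826% over all miRNAs. By stage, 53.4% of 5p sites were listed in fetal libraries alone, 34.4% after birth alone and 12.2% in both, close to 54.0%, 34.6% and 11.4% over all miRNAs. Between the 2 lists of one fetal stage the overlap was also partial: for e12.5, 83 sites of miR-21a-5p were shared, 46.9% of the first list and 15.7% of the second. A gene that is not listed in a library was therefore not shown to lack the site.

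Recurrence in 3'UTRs was compared by seed type. Of the miR-21a-5p sites there, 30.5% of 6mers (25.5 to 36.1), 18.3% of 7mer-A1 (11 of 60, 10.6 to 29.9), 33.3% of 7mer-m8 and 42.5% (17 of 40, 28.5 to 57.8) of 8mers were listed in 2 or more libraries, and the intervals of the 6mers overlap those of the 7mer-A1 sites and of the 8mers. For miR-21a-3p the shares were 28.3% (23.3 to 33.9), 15.6% (5 of 32, 6.86 to 31.8), 30.4% and 36.5% (26.4 to 47.9) in the same order, with the same overlaps. Over all miRNAs they were 21.6%, 22.8%, 23.5% and 28.2%, so the 8mers had the highest share in all 3, and the 7mer-A1 sites the lowest in both arms but not over all miRNAs.

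Conservation of the 5p sites in 3'UTRs was above that of all miRNAs, and that of the 3p sites was near it. The deposited score runs from 0 to 1, and its method is not given in the sources used here. A score of at least 0.9 was held by 39.3% (35.0 to 43.9) of the 460 miR-21a-5p sites in 3'UTRs, 35.7% (32.4 to 39.2) of the 753 miR-21a-3p sites and 32.8% of the sites of all miRNAs, and the medians were 0.62, 0.379 and 0.28. Among 5p 8mers it was 20 of 40 (50%, 35.2 to 64.8) and among 3p 8mers 23 of 74 (31.1%, 21.7 to 42.3), beside 42.2% over all 8mers. In the CDS, where codons are conserved whether or not a miRNA binds, 67.4% (62.8 to 71.6) of 5p sites, 57.7% of 3p sites and 58.5% of all sites reached the score. These shares were not tested, since sites overlap and share genes.

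**Figure D2:**
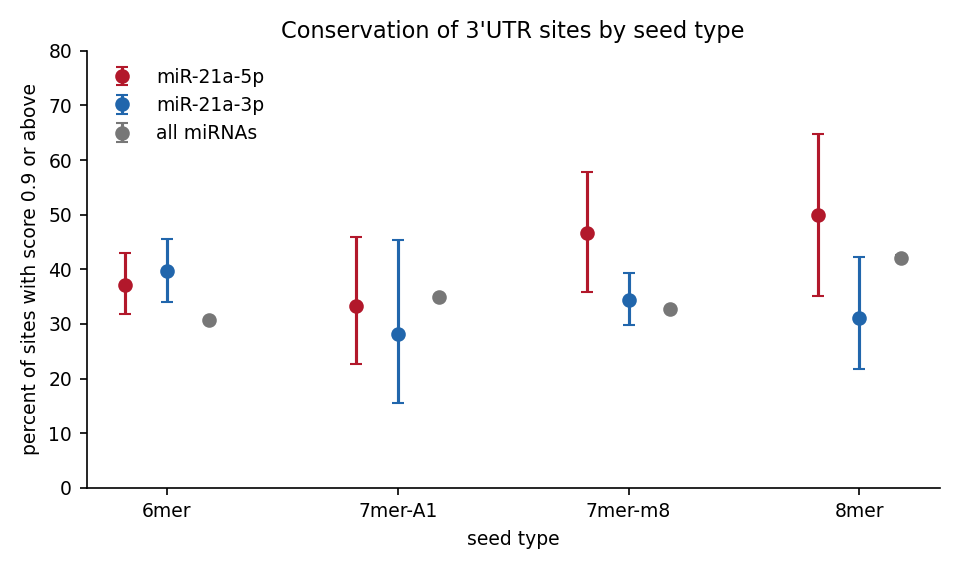
Percent of 3'UTR sites with a deposited conservation score of 0.9 or above by seed type, for miR-21a-5p (red), miR-21a-3p (blue) and all miRNAs (grey), with 95% Wilson intervals. The 5p points go from 37.2% for 6mers to 50% for 8mers, the 3p points from 39.7% to 31.1%, and the intervals of the arms overlap at each seed type.

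The share of clusters with a site was compared between 2 pairs of libraries, with a two-sided Fisher's exact test per miRNA adjusted over all miRNAs tested by the Benjamini-Hochberg method, so that each p compares 2 libraries. In the CDS, 160 of 58352 clusters (0.274%) held a miR-21a-5p site at e12.5 and 148 of 39007 (0.379%) in adult, a log2 odds ratio of 0.47 (SE 0.16, Fisher's exact test, adjusted p = 0.00741). This was 1 of 255 miRNAs called larger in adult, 30.2% of the 844 tested, while 44.2% were called smaller and 74.4% in either direction, so a call is common here. The median log2 odds ratio of all miRNAs was -0.14. The call was lost when genes stood in place of clusters (log2 odds ratio 0.091, Fisher's exact test, adjusted p = 0.631), although 82.2% of miRNAs were then called and the median log2 odds ratio was -0.49. In e12.5 a gene with a CDS cluster had 5.45 clusters on average and in adult 4.22.

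In 3'UTRs the share of miR-21a-5p was 0.484% at e12.5 (191 of 39452) and 0.628% in adult (100 of 15914), a log2 odds ratio of 0.38 (SE 0.18) that missed the threshold (Fisher's exact test, adjusted p = 0.0540). Of the 805 miRNAs tested 68.7% were called, 23.0% larger and 45.7% smaller in adult. It turned with the unit: by genes the log2 odds ratio was -0.39 (Fisher's exact test, adjusted p = 0.0355), with 4.69 clusters a gene in e12.5 and 2.77 in adult. By genes 93.8% of the miRNAs were called, 644 of 805 of them smaller in adult, and their median was -1.02, further down than miR-21a-5p. Across birth no call was made for the 5p arm by clusters. In 3'UTRs its share was 0.625% in e18.5 and 0.527% in P7 (log2 odds ratio -0.25, 95% interval -0.61 to 0.11, Fisher's exact test, adjusted p = 0.282), where 53.4% of 768 miRNAs were called, 38.8% larger and 14.6% smaller in P7. In the CDS it was 0.275% and 0.316% (0.20, -0.20 to 0.59, Fisher's exact test, adjusted p = 0.427), where 60.2% of 806 were called, 40.1% larger and 20.1% smaller. By genes the CDS contrast was called (0.76, Fisher's exact test, adjusted p = 0.00019), as it was for 85.5% of miRNAs, with a median of 0.68.

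miR-21a-3p passed the threshold in none of the 4 contrasts by clusters. In 3'UTRs its share was 0.913% in e12.5 and 0.829% in adult (log2 odds ratio -0.14, 95% interval -0.42 to 0.15, Fisher's exact test, adjusted p = 0.425). Across birth it was 0.854% and 0.817% (-0.07, -0.37 to 0.24, Fisher's exact test, adjusted p = 0.752). In the CDS the values were 0.941% in e12.5 and 0.879% in adult (-0.10, -0.29 to 0.10, Fisher's exact test, adjusted p = 0.388). Across birth the CDS share was 0.929% and 0.789% (-0.24, -0.47 to -0.01, Fisher's exact test, unadjusted p = 0.0436, adjusted p = 0.0698). By genes all 4 contrasts passed the threshold, lower in adult than in e12.5 (-0.86 in 3'UTRs, -0.48 in the CDS) and higher in P7 than in e18.5 (0.37 and 0.35). By genes between 71.6% and 93.8% of all miRNAs were called in these contrasts, with medians of -1.02, -0.49, 0.58 and 0.68 in the same order, so each value of miR-21a-3p lay nearer 0 than the median miRNA.

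**Figure D3:**
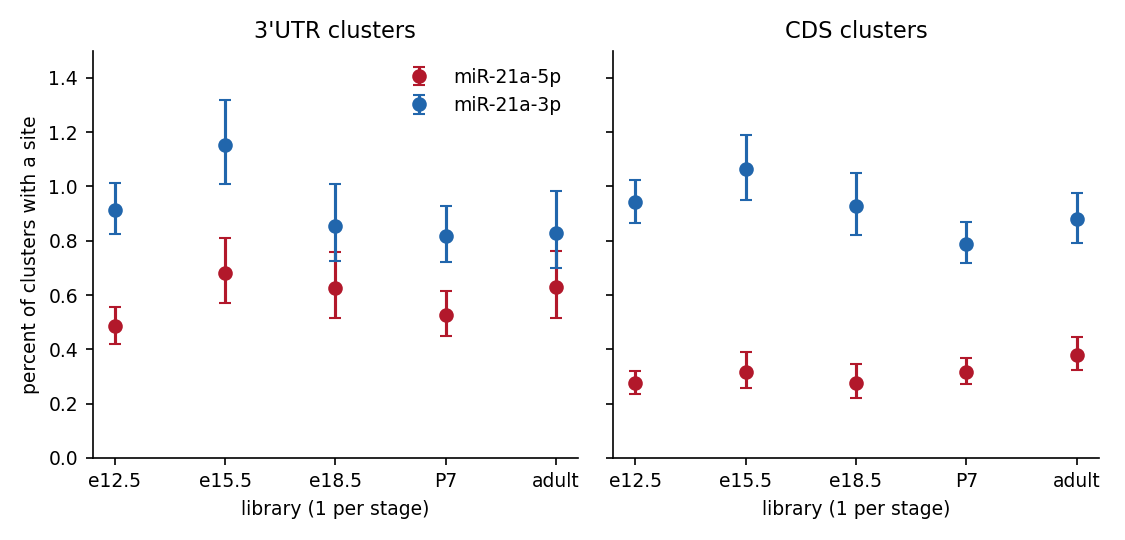
Percent of clusters that hold a site of miR-21a-5p (red) or miR-21a-3p (blue) among 3'UTR clusters (left) and CDS clusters (right) of each library, with 95% Wilson intervals. The 3p arm lies above the 5p arm in every library and region, between 0.789% and 1.15% against 0.274% to 0.681%.

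Target genes numbered 436 for miR-21a-5p in 3'UTRs, 429 in the CDS and 25 in 5'UTRs, and 699, 1065 and 67 for miR-21a-3p. From e12.5 to adult, 3'UTR sites of miR-21a-5p lay in 187, 119, 100, 154 and 98 genes. In 3'UTRs 5 genes of the 5p arm and 4 of the 3p arm had sites in all 5 libraries, and in the CDS 6 and 30. The arms shared 76 genes in 3'UTRs, 17.4% of the 5p genes and 10.9% of the 3p genes.

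The most read miR-21a-5p site by far was in the alpha-globin genes, whose product carries oxygen in red cells. Hba-a1 and Hba-a2 hold the same 22 bases, here with the 6mer in capitals.
Hba-a1 and Hba-a2 (CDS and 3'UTR, 6mer): acctccaagtaccgtTAAGCTg
The match lies at chr11:32284389-32284394 in Hba-a1 and at chr11:32297206-32297211 in Hba-a2, and begins at the TAA stop codon of both genes. The copies share reads and cannot be told apart: from e12.5 to adult Hba-a2 had 1251181, 560645, 564952, 259178 and 17690 reads, and Hba-a1 1251174 in e12.5 and the same elsewhere. In reads per 1000000 cluster reads (rpm), Hba-a2 had 27886, 33938, 43429, 15709 and 711. Since miRNA genes took 50.4% to 79.9% of the cluster reads of a library, values were also scaled to the cluster reads outside them, which gave 60013, 70284, 87622, 53351 and 3533. On both scales the 3 fetal libraries were high and adult lowest. Without Hba-a1, the erythroid markers Hbb-bt and Slc4a1 summed to 6759, 14506, 5866, 3424 and 286 reads per 1000000 reads outside miRNA genes, highest in e15.5 and lowest in adult, where Slc4a1 had no cluster. The 5 hepatocyte markers (Alb, Apoa1, Ttr, Trf and Cps1), which liver should hold, all had clusters in every library and went from 1572 in e12.5 to 45733 in adult. The part of cell makeup in the site values was not tested, and fewer cells of a type and less RNA per cell cannot be told apart. The globin cluster also held sites of 46 to 66 other miRNAs.

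Apart from the globins, Itgb1 and Rnf167 led the 3'UTR sites of miR-21a-5p listed in all 5 libraries. Itgb1, the integrin beta 1 chain that binds cells to matrix, had 3149, 1497, 703, 242 and 90 reads at its 6mer from e12.5 to adult, or 70.2, 90.6, 54.0, 14.7 and 3.62 rpm. Rnf167, a ubiquitin ligase, had 437, 236, 285, 50 and 76 reads at a 7mer-m8, or 9.74, 14.3, 21.9, 3.03 and 3.05 rpm. The fetal libraries lay above both later ones for Itgb1 and Rnf167 on both scales. The conservation score, described above, was 0.001 and 0.004 at these sites.

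Of the 13 sites of miR-21a-5p in 3'UTRs that were listed in 4 libraries, those in 5 genes had the most rpm. Nt5c3, a nucleotidase of red cells, had 962, 759 and 365 reads in the fetal libraries in order of age and 39 in adult. Slc25a51, a mitochondrial NAD carrier, had 433, 572, 131 and 127 from e12.5 to P7. Slc25a37, the mitochondrial iron importer mitoferrin of erythroid cells, had 558, 55 and 68 in the fetal libraries and 8 in adult. These 3 sites are 6mers. Nt5c3 and Slc25a37 were not listed in P7, and adult (1.57 and 0.321 rpm) was lowest on both scales among the libraries that list them. Scaled to reads outside miRNA genes, the erythroid markers Hbb-bt and Slc4a1 summed to 286 in adult, also their lowest, but to 3424 in P7. A site that is not listed was not shown to be absent, so sites and markers cannot be compared in P7. Kmt2d, a histone H3K4 methyltransferase, had 300 reads in e12.5, 189 in e18.5, 100 in P7 and 46 in adult at a 6mer with score 1. Zfp367, a zinc finger protein, had 371, 208, 57 and 32 in e12.5, e15.5, P7 and adult at the one 8mer among these genes, also with score 1.

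In the CDS, S100a1, Ctsb and Ikbkg had the most rpm after the globins among sites listed in all 5 libraries. S100a1, a calcium-binding protein, had 67, 280, 225, 116 and 114 reads from e12.5 to adult at a 7mer-m8 with score 1. Ctsb, the lysosomal protease cathepsin B, had 398, 182, 136, 21 and 228 at an 8mer. Ikbkg, the NF-kappaB regulator NEMO, had 46, 213, 14, 70 and 21 at a 7mer-m8 with score 0.997. On neither scale did the fetal libraries all lie above the later ones for any of these 3. The lowest value was in e12.5 for S100a1 (1.49 rpm) and in P7 for Ctsb (1.27 rpm) on both scales, while for Ikbkg it was in adult by rpm (0.844) and in e18.5 when scaled to reads outside miRNA genes (2.17, against 4.19 in adult).

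**Figure D4:**
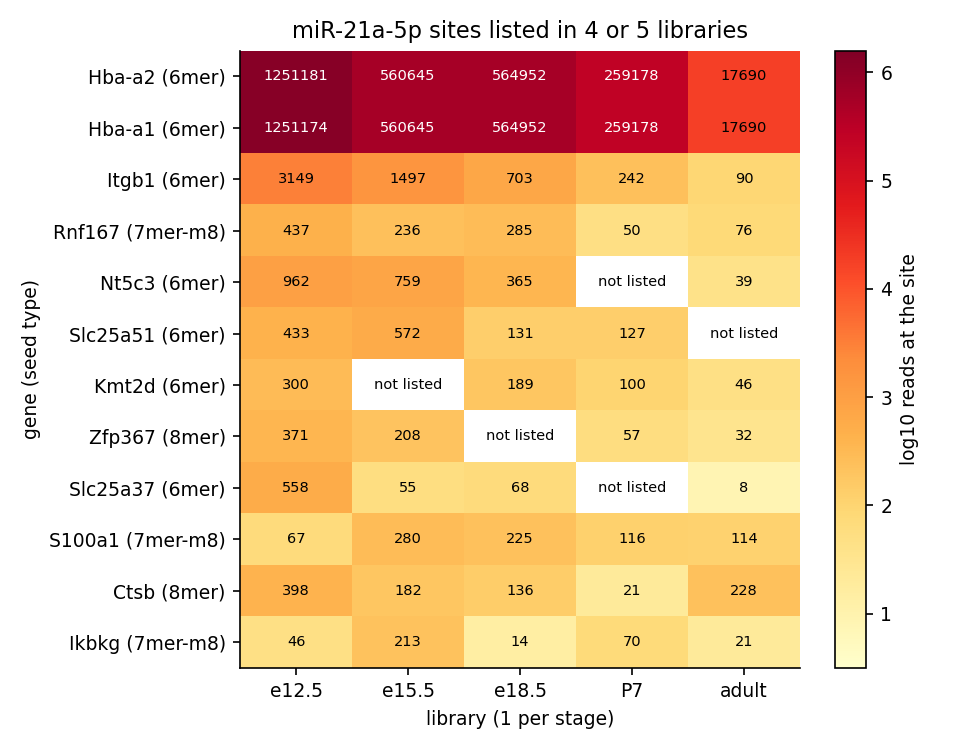
Reads at miR-21a-5p sites in genes with many reads among sites listed in 4 or 5 libraries, one row a gene with its seed type and one column a library. Numbers are reads, not scaled for depth, and colours their log10; white cells are not listed. Reads run from 1251181 in e12.5 to 17690 in adult at Hba-a2 and from 3149 to 90 at Itgb1, while S100a1 had its fewest in e12.5 and Ctsb in P7.

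Typical sites had few reads. The median 3'UTR site of miR-21a-5p had 40, 44.5, 55, 22 and 31 reads from e12.5 to adult, beside 34, 37, 31, 18 and 26 over the sites of all miRNAs. The medians of miR-21a-3p were 37, 37.5, 31.5, 18 and 29.5. In 3'UTRs the 5p median was above the median of all miRNAs in each of the 5 libraries. Over sites of any region it was below it in e15.5 (27 against 30 reads) and e18.5 (20 against 21), equal in P7 (16) and above it in e12.5 (31 against 28) and adult (26 against 25).

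Genes reported as miR-21 targets elsewhere were then looked up, 41 genes in 4 lists taken from general knowledge. The lists were chosen with earlier results of these data known, so the shares below are not an independent check. Of the 39 with a 3'UTR site of any miRNA, 13 (33.3%) had one of miR-21a-5p, beside 436 of 11065 genes (3.94%), and 5 (12.8%) had one of miR-21a-3p, beside 6.32%. The genes of the lists are known as targets partly because of their seed matches: ATAAGCT stands in the annotated 3'UTR of 64.1% of them against 9.32% of all. They also had more listed 3'UTR sites of any miRNA (median 42 against 17 a gene) and longer 3'UTRs (2202 against 1404 bases). Among genes with ATAAGCT, 10 of 25 (40%, 23.4 to 59.3) had a listed 7mer-m8 or 8mer of miR-21a-5p, against 101 of 985 (10.3%).

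Of the 13 sites, 8 (61.5%) were 8mers, beside 8.70% of all miR-21a-5p sites in 3'UTRs. A score of at least 0.9 was held by 10 (76.9%), beside 39.3% of all miR-21a-5p sites in 3'UTRs and 50% of the 8mers among them. The genes are known as targets partly because of their seed matches, and how far this sets these shares was not tested. The 13 sites were listed in 1 library (8 sites), 2 (4 sites) or 3 (1 site), with 8, 3, 3, 5 and 0 of the sites in the libraries from e12.5 to adult. The adult and e18.5 libraries had about as many 3'UTR clusters (15914 and 16150) and 3'UTR sites of miR-21a-5p (100 and 101). The difference between 3 sites in e18.5 and 0 in adult was not tested, and a site that is not listed was not shown to be absent.

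Among 6 regulators of RAS, MAPK and PI3K signalling, 1 had a 3'UTR site of miR-21a-5p. Spry2, which restrains receptor tyrosine kinases, had 31 reads at e12.5 at the 8mer shown above, with score 1. Its relative Spry1 had no 3'UTR site listed and 13 reads at a 6mer in the CDS at P7.

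Among apoptosis, translation and cell cycle genes, 6 of 13 had one. Btg2, an antiproliferative gene, had 217 reads at e12.5 and 198 at e18.5 at a 7mer-A1 with score 1. Peli1, a ubiquitin ligase of immune signalling, had 18 and 90 in the same libraries at its 8mer. Skp2, the F-box protein that marks cell cycle inhibitors, had 39 in e12.5 and 61 in e15.5. The other 3 had lower or single values: Cdc25a, a cell cycle phosphatase, 63 at e15.5, Fasl, the death ligand, 21 at P7, and the transcription factor Nfib 8 in e12.5 and 5 in e15.5. Pdcd4, the translation inhibitor that is the best known miR-21 target, has 1 ATAAGCT in its annotated 3'UTR and 30 listed sites of other miRNAs there but none of miR-21a-5p.

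Among matrix, cytoskeleton and TGF-beta genes, 3 of 10 had one. Tgfbr2, the type II TGF-beta receptor, had 123 reads at e12.5 at a 7mer-m8 with score 1. Tgfbi, a matrix protein induced by TGF-beta, had 22 at P7 at the 8mer shown above, and the actin regulator Marcks 29 at P7 at a 6mer that is also listed in its CDS. Reck, Timp3 and Smad7 each hold 1 ATAAGCT and had no listed 5p site in the 3'UTR.

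Among liver metabolism and inflammation genes, 3 of the 10 with a 3'UTR site of any miRNA had one. Stat3, the transcription factor of the acute phase response, had the site listed most often, a 7mer-m8 with 144 reads at e12.5, 125 at e18.5 and 165 at P7. Ppara, the regulator of fatty acid oxidation, had 31 reads at P7 at an 8mer of low score (0.027). Lrp6, a Wnt coreceptor, had 20 at e12.5 at a 7mer-A1. In all, 16 of the 41 genes hold ATAAGCT in the annotated 3'UTR without a listed site.

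**Figure D5:**
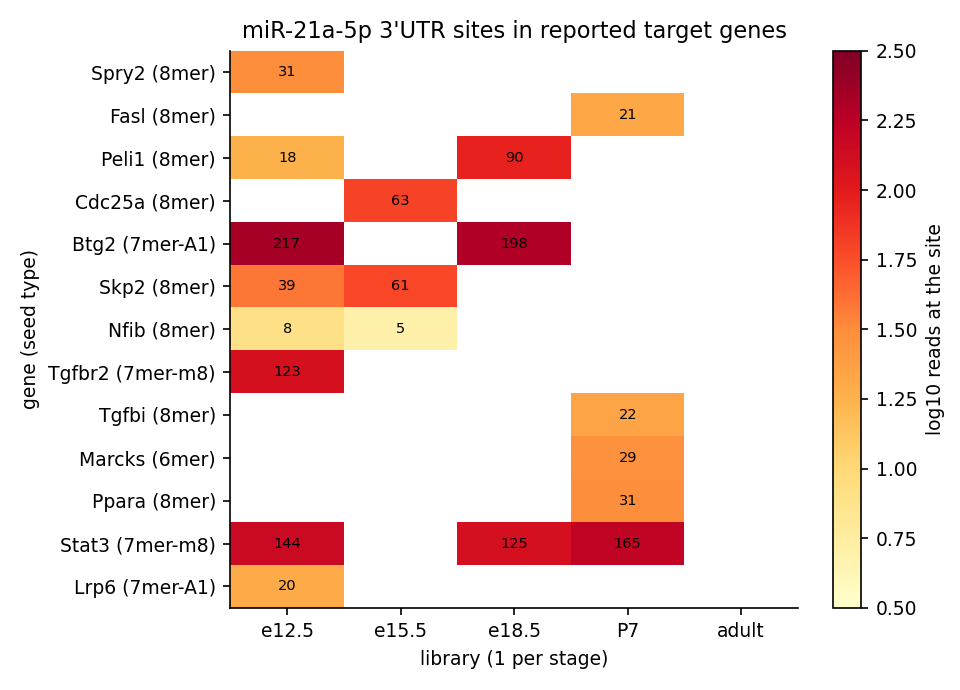
Reads at the 13 miR-21a-5p 3'UTR sites in genes reported as miR-21 targets, one row a gene with its seed type and one column a library; blank cells are not listed. Counts run from 5 to 217, e12.5 holds 8 sites, Stat3 appears in 3 libraries and the adult column is empty.

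The leading 3'UTR sites of the 3p arm lay in other genes. Ccnf, the F-box protein cyclin F, had 443, 683, 208, 110 and 25 reads from e12.5 to adult, Stk40, a kinase-like protein, 36, 59, 163, 39 and 23, and Map2k3, the kinase that activates p38, 191, 144, 24, 14 and 22. Map2k3 is also in the lists of reported targets, and had no listed 5p site although its annotated 3'UTR holds 1 ATAAGCT. Gucd1 and Kcnn4, a potassium channel, had sites in 4 libraries, with 404 and 420 reads in e12.5 and none listed in adult. On both scales Ccnf, Map2k3, Gucd1 and Kcnn4 were highest in e15.5 (41.3, 8.72, 19.1 and 15.01 rpm), and Stk40 in e18.5 (12.53 rpm).

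In the CDS, the leading 3p sites included Apoe and C3, which hepatocytes express strongly. Apoe, the lipid carrier apolipoprotein E, had 79, 507, 374, 854 and 2667 reads from e12.5 to adult at a 7mer-m8 with score 0. Chp1, an EF-hand protein, had 271, 58, 533, 1199 and 5410 at a 7mer-A1 with score 1. C3, the complement component, had 881, 237, 194, 198 and 775, Ssr1, of the endoplasmic reticulum translocon, 210, 91, 237, 398 and 893, and Igf2r, the receptor that clears IGF2, 330, 776, 151, 555 and 90. On both scales Chp1, Apoe, C3 and Ssr1 had their highest values in adult (217, 107, 31.1 and 35.9 rpm), as the sum of the 5 hepatocyte markers did on theirs. Igf2r was lowest in adult by rpm (3.62) but in e12.5 when scaled to reads outside miRNA genes (15.8, against 18.0 in adult). The part of cell makeup in this was not tested.

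Among the 3p sites, 12 lay inside miRNA genes and overlapped the entry of another miRNA, so that their reads cannot be told from those of that miRNA. The most read were in Mir93 (74562, 43525 and 6057 reads in the fetal libraries) and let-7i (24205, 13660, 12825, 15544 and 24667 from e12.5 to adult). The 5p arm had 1 such site. A further intergenic 3p site, at chr6:39759980-39759985 on the plus strand, is shown for its flank, with the 6mer in capitals.
Intergenic 6mer of miR-21a-3p: aatagcttatcagacGCTGTTg
It shares a run of 13 bases with miR-21a-5p itself and had 573, 248, 334, 486 and 32 reads from e12.5 to adult. Sites of fragments that occur more than once made up 13.5% of the 5p sites and 14.0% of the 3p sites. Among the genes named above these include Chp1, whose 22 bases were listed at 3 positions, and Map2k3, Ctsb and Slc25a51, at 2 each, so their reads may be shared between positions.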

How the data were processed

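The 5 tables of miRNA-target interactions, 1 per stage, were used as deposited. The authors trimmed reads with FASTX-Toolkit, mapped them with Bowtie to the mouse genome (mm10; the processing notes also name mm9) and to miRBase precursors, grouped overlapping reads into clusters and scanned these for seed matches. The read number of a site is a signal, deposited as whole reads with no normalization stated; the conservation score and the pairing energy score are used as deposited. The members, gene lists and markers were chosen with earlier results of these data known.

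Starts were made 1-based. In the fetal tables, which hold 2 lists, reads were summed over the lists, and clusters of both lists that overlap on 1 strand were joined. Cluster counts ranged from 76948 to 208193 and miRNA reads from 7781484 to 25546696 a library; lowest listed value is 5 reads. miRNA genes held 50.4% to 79.9% of cluster reads. Within a cluster the read number differed between sites in 9.84% to 14.2% of clusters with several sites and was the same at all sites in the others. Intervals are 95% Wilson intervals, and cover counting error of reads without molecular identifiers.

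Shares of clusters with a site were compared by two-sided Fisher's exact tests (scipy 1.17.1) for miRNAs with at least 50 clusters in the 2 libraries together, Benjamini-Hochberg adjusted, threshold 0.05. Clusters of 1 library are not replicates, so each p compares 2 libraries. On simulated data with 100 miRNAs changed by a log2 odds ratio of 1, 93% were recovered for e12.5 against adult in 3'UTRs (805 miRNAs). The simulated counts were drawn independently and the other miRNAs left unchanged. This does not show how often smaller ratios, or clusters that share genes, would be called. Named genes are the 10 with most rpm among 3'UTR sites of miR-21a-5p in all 5 libraries (filled from those in 4), 5 for the CDS, 5 of each for miR-21a-3p, and every reported target with a 3'UTR site. Profiles were compared as log2(rpm + 1), for miRNAs with at least 100 rpm in a library. Seed words in annotated 3'UTRs, the other miRNAs of a cluster and the sites within miRNA genes were examined after seeing the data. Alternatives were a minimum of 10 reads, at least 7 matched bases, each list alone, genes in place of clusters, seed families, at least 20 clusters and other denominators. Sequences were read from GRCm38 with pysam 0.24.0. No columns of the authors' own comparisons were used. Some genes that the naming rule or the lists hold are not reported here.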

Additional observations from a re-analysis of the deposited data

How the results depend on the processing

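The tables limit what can be said: 1 library a stage, a cluster shared by several miRNAs, and sites that mostly appear in 1 library. No paired analysis was possible because each stage has 1 library. For the adult over e12.5 abundance, the log2 ratio of miR-21a-5p was 2.89 when scaled to the study's total reads, 1.72 with the first list alone, 1.94 with the second list alone and 1.57 without the most abundant miRNA; that of miR-21a-3p was 3.10, 6.51, 1.77 and 1.79. With at least 7 matched bases there were 575 sites and 172 genes with a 3'UTR site for miR-21a-5p, and 1995 and 463 for miR-21a-3p. With the first list alone there were 981 and 278, and 2024 and 439, and 8 reported targets had a 3'UTR site of miR-21a-5p.

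For the site shares, given as log2 odds ratios, the cause was not tested where a value moved. For miR-21a-5p, e12.5 against adult in 3'UTRs passed the threshold with at least 10 reads (0.50, adjusted p = 0.0150) and with seed families (0.40, Fisher's exact test, adjusted p = 0.0424); over its alternatives by clusters the adjusted p ran from 0.0150 to 0.136. With at least 7 matched bases the sign turned for miR-21a-3p in e12.5 against adult (0.050 in 3'UTRs, 0.11 in the CDS) and for both arms in e18.5 against P7 in 3'UTRs (0.0095 for 5p, 0.033 for 3p); with the second list alone it turned for miR-21a-3p in the latter (0.13). The first list alone brought miR-21a-3p past the threshold in the CDS of e12.5 against adult (-0.33), where 462 miRNAs were called, and it took the miRNAs called in 3'UTRs from 553 to 361. With genes in place of clusters, miR-21a-5p gave -0.39 and 0.18 in 3'UTRs and 0.091 and 0.76 in the CDS (e12.5 against adult, then e18.5 against P7), and miR-21a-3p gave -0.86, 0.37, -0.48 and 0.35 in the same order. Leaving out sites in miRNA genes, chosen after seeing the data, changed no call of either arm, and 21 of 25 named entries remained when reads were scaled to clusters outside miRNA genes, likewise chosen after seeing the data.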
